A study of Coturnix japonica with 20 samples.

Results

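NR1H4, KLB and SLC51B are 3 genes with different parts in how a liver cell handles bile acids. Their levels were followed here in quail embryos (Coturnix japonica, the Japanese quail), in the left lobe of the liver at embryonic day 9. The genes were chosen by symbol from the 16066 genes of the count table: NR1H4 (gene 107312042), KLB (gene 107313821) and SLC51B (gene 107318933), 3 genes in all, none of them on the Z sex chromosome. The eggs had received, at embryonic day 0 and before incubation, 10 µl into the air cell of either the solvent dimethyl sulfoxide (DMSO) or the synthetic estrogen ethinylestradiol (EE2), dosed by egg weight at 3.33 µg/g. The groups were 5 solvent males, 4 EE2 males, 5 solvent females and 6 EE2 females, each embryo giving 1 RNA sequencing library. No strain, genotype or parentage is stated in the sources used here, so a p-value here reflects variation among the embryos as they are labelled.

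NR1H4 encodes the farnesoid X receptor, a nuclear receptor that binds bile acids and pairs with RXRA on DNA. In human and mouse it raises transcription of genes for bile acid export, among them ABCB11 and the SLC51A-SLC51B pair. It also acts against bile acid synthesis through the corepressor NR0B2 and, in human, the hormone FGF19. KLB encodes beta-klotho, the co-receptor that lets FGF19 act on FGFR4 at the hepatocyte surface. SLC51B encodes the beta subunit of the organic solute transporter, which with its alpha subunit SLC51A moves bile acids across the basolateral membrane.

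Levels are CPM, counts per library divided by its TMM-scaled size and set to a common total. They are not divided by transcript length, so levels are compared between embryos and not between genes. Differences are log2 fold changes with a standard error (SE) from edgeR's quasi-likelihood test, and a gene is called where the p adjusted by Benjamini-Hochberg over 13501 tested genes is under 0.05. All 3 genes passed the filter on low counts. Totals lay between 15298506 and 32119466 estimated counts, solvent female replicate 9 being the lowest and the other 19 reaching at least 26776988. Per library, NR1H4 had 1416 to 4454 counts, KLB 2056 to 5343 and SLC51B 87 to 1952. EE2 male replicate 3 stood apart from its group, at -1.45 on the first principal component, where the other 9 EE2 libraries lay between 22.45 and 44.12 and the 10 solvent libraries between -41.62 and -26.4.

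In females, NR1H4 and KLB fell under EE2 and SLC51B rose, against a background of 20.3% of tested genes called in either direction. In males, 1 of the 3 was called, SLC51B, which rose, where 3.27% of tested genes were called. NR1H4 was 1.67-fold lower and KLB 2.11-fold lower in EE2 females than in solvent females, and SLC51B was 3.69-fold higher. The male embryos had a 3.13-fold higher SLC51B level, with NR1H4 at a log2 fold change of -0.32 and KLB at -0.16, neither of which passed.

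**Figure D1:**
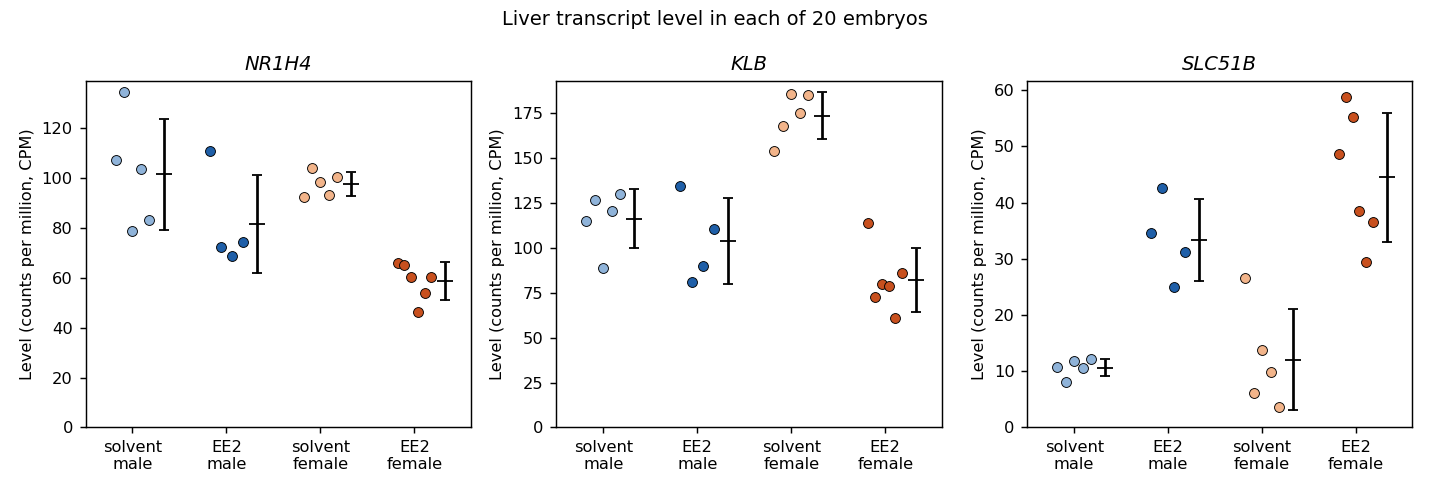
Level of NR1H4, KLB and SLC51B (CPM, linear axes from 0) in each of the 20 embryos, by sex and treatment. Points are embryos and bars are the mean ± SD of 4 to 6 embryos. For NR1H4 and KLB all 6 EE2 females lie below all 5 solvent females, and for SLC51B the EE2 embryos of each sex lie above the solvent embryos of that sex. Of tested genes, 6.08% were wholly lower and 5.99% wholly higher in EE2 females, and 3.35% wholly higher in EE2 males.

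The bile acid receptor gene NR1H4 was at 92.5, 104, 98.5, 93.1 and 100.2 CPM in the 5 solvent females. In the 6 EE2 females it ran from 46.1 to 65.8 CPM, with a median of 60.4. The EE2 females were all below the solvent females and the groups did not overlap, a pattern in which 6.08% of tested genes stood lower in EE2 females. The means were 97.7 ± 4.86 CPM (SD, n = 5) and 58.6 ± 7.51 CPM (SD, n = 6). The log2 fold change was -0.74 (SE 0.136, adjusted p = 0.000726).

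In males NR1H4 varied more between embryos. The solvent males were at 107, 134, 78.9, 104 and 83 CPM, a mean of 101 ± 22.2 CPM (SD, n = 5). Replicates 3, 4, 5 and 6 of the EE2 males were at 111, 72.5, 68.8 and 74.1 CPM, a mean of 81.5 ± 19.5 CPM (SD, n = 4). So 3 of 4 EE2 males lay below every solvent male, and EE2 male replicate 3 lay above 4 of the 5. The log2 fold change of -0.32 (SE 0.152, adjusted p = 0.302) did not pass. Without EE2 male replicate 3 it was -0.50 with an adjusted p = 0.0496. This was the only 1 of 20 fits that each left out a library in which it passed, the adjusted p reaching 0.609. It passed in none of 10 other alternatives.

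The effect of EE2 on NR1H4, averaged over the sexes with equal weight, was -0.53 in log2 terms (SE 0.102, adjusted p = 0.00109), where 20.6% of tested genes were called. The difference between the female and the male effect was -0.42 (SE 0.203, adjusted p = 0.361) and did not pass, so a larger fall in females was not shown. Solvent females and solvent males differed by -0.05 (SE 0.142, adjusted p = 0.95). With EE2, all 6 females lay below all 4 males, as did 4.56% of tested genes. That difference was -0.48 (SE 0.144) with an adjusted p = 0.0543, where 6.47% of tested genes were called. It was -0.29 with an adjusted p = 0.266 without EE2 male replicate 3. It passed in 5 of 20 fits that each left out a library: without solvent male replicate 2, 4 or 8, EE2 male replicate 5 or EE2 female replicate 1.

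The deposited table splits NR1H4 into 4 coding sequences, the predicted protein variants of the gene, and the estimated counts were assigned to only part of them. The second listed coding sequence took between 87.3% and 94.7% of the NR1H4 counts of a library, with a mean of 91 ± 2.26% (SD, n = 20). The first took the rest, 5.33% to 12.7%, and the other two had under 1 count in each of the 20 libraries. Each of the sequences with counts fell in EE2 females when tested across 26541 coding sequences, of which 9.45% were called. The first was at -1.06 (SE 0.245, adjusted p = 0.00911) and the second at -0.69 (SE 0.144, adjusted p = 0.00457), both as log2 fold changes. The share of the first was 7.68 ± 2.75% in EE2 females (SD, n = 6) and 9.85 ± 1.68% in solvent females (SD, n = 5), a difference of -2.18 percentage points (two-sided exact permutation p = 0.152, and 0.606 adjusted over 4 comparisons). No shift between the coding sequences was detected, and the estimates share reads wherever the sequences are alike.

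KLB, the co-receptor gene, had its highest levels in solvent females. These were at 154, 168, 185, 175 and 185 CPM, a mean of 173 ± 13.1 CPM (SD, n = 5). The 6 EE2 females ran from 61.2 to 114 CPM, with a median of 79.4 and a mean of 82.1 ± 17.7 CPM (SD, n = 6). All 6 lay below all 5 solvent females, as did 6.08% of tested genes. The log2 fold change was -1.08 (SE 0.143, adjusted p = 3.03e-05). In males the groups overlapped, with solvent males at 115, 126, 88.9, 121 and 130.1 CPM and EE2 males 3, 4, 5 and 6 at 135, 80.9, 89.8 and 110.3 CPM. Their means were 116 ± 16.3 CPM (SD, n = 5) and 104 ± 23.9 CPM (SD, n = 4). The male log2 fold change was -0.16 (SE 0.159, adjusted p = 0.679).

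The EE2 effect on KLB differed between the sexes by -0.92 (SE 0.213, adjusted p = 0.0446), where 1.06% of tested genes were called and 0.8% were called lower; in the fit over single coding sequences, where 0.0301% were called, it did not pass. The call sat at the threshold. It held without solvent male replicate 8, solvent female replicate 9, EE2 female replicate 1 or EE2 male replicate 5, and was lost when any other single library was left out, with values of -1.03 to -0.77 and adjusted p between 0.0147 and 0.122 over the 20 fits. Without EE2 male replicate 3, the EE2 male with the highest KLB level, the difference was -0.77 with an adjusted p = 0.122. The fall in EE2 females passed in all 20 of these fits. The averaged effect was -0.62 (SE 0.107, adjusted p = 0.000407).

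Before EE2 is considered, KLB already stood higher in females: all 5 solvent females lay above all 5 solvent males, as did 0.837% of tested genes. The difference was 0.58 (SE 0.15) with an adjusted p = 0.0574, just outside the threshold, where 1.72% of tested genes were called. It passed with upper-quartile scaling (adjusted p = 0.0481), with the Wald test of DESeq2 (adjusted p = 0.0106), when only the solvent groups were fitted (adjusted p = 0.0149), and when 1 of 4 EE2 libraries was left out, namely female replicates 1 and 9 and male replicates 3 and 4. With EE2 the order was turned, at -0.34 (SE 0.152, adjusted p = 0.199), and did not pass. From the highest group mean to the lowest, KLB ran from solvent females through solvent males and EE2 males to EE2 females. No neighbouring groups in that order passed the test of their difference.

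SLC51B, the transporter subunit gene, was low without EE2 and higher with it in both sexes. The solvent males were at 10.7, 8.12, 11.7, 10.6 and 12.2 CPM, a mean of 10.7 ± 1.57 CPM (SD, n = 5). EE2 male replicates 3, 4, 5 and 6 were at 34.6, 42.6, 25 and 31.2 CPM, a mean of 33.4 ± 7.36 CPM (SD, n = 4). All 4 EE2 males lay above all 5 solvent males, as did 3.35% of tested genes. The log2 fold change was 1.65 (SE 0.373, adjusted p = 0.0178). It was 1.51 with an adjusted p = 0.0642 without EE2 male replicate 4, the highest of the group, and kept its call in the other 19 fits. On SLC51B, EE2 male replicate 3 was within the range of the other EE2 males.

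Solvent females were more spread, at 26.5, 6.21, 13.8, 9.86 and 3.7 CPM, a mean of 12 ± 8.97 CPM (SD, n = 5). Solvent female replicate 3 was the highest of them. The 6 EE2 females ran from 29.5 to 58.9 CPM, with a median of 43.5 and a mean of 44.5 ± 11.5 CPM (SD, n = 6), all above the solvent females, as were 5.99% of tested genes. The log2 fold change was 1.88 (SE 0.351, adjusted p = 0.000882). The female and male effects differed by 0.24 (SE 0.502, adjusted p = 0.883), an SE that leaves room for sizeable differences in either direction. The sexes differed by 0.18 (SE 0.357, adjusted p = 0.935) with solvent and by 0.42 (SE 0.355, adjusted p = 0.549) with EE2. Averaged over the sexes, the effect was 1.77 (SE 0.256, adjusted p = 8.06e-05). The table holds 3 coding sequences for SLC51B with the same value in each library, 33.3% of the gene's counts each, so the variants cannot be told apart and their sum was used.

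**Figure D2:**
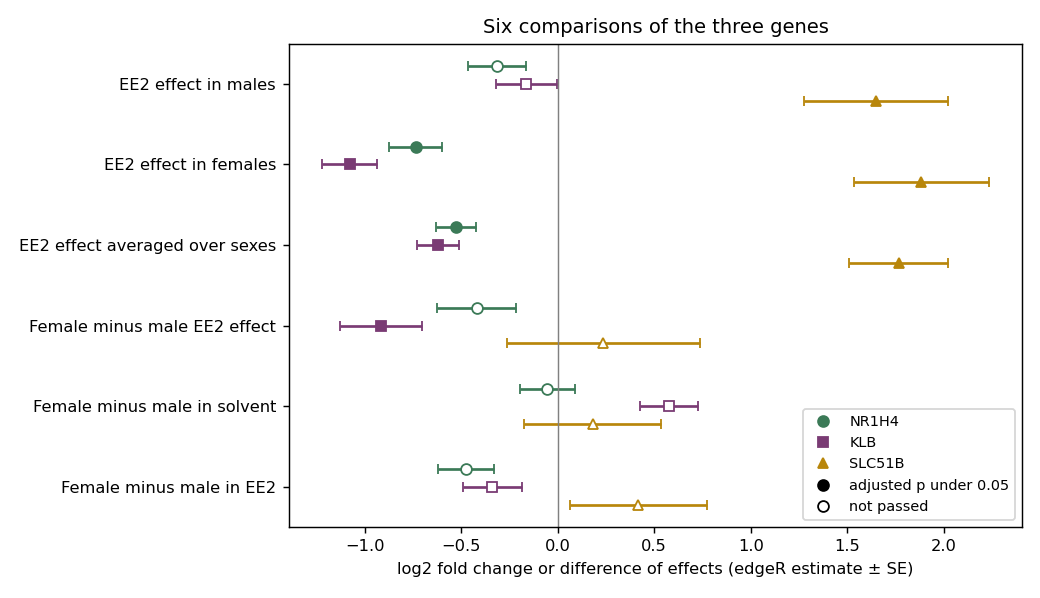
Log2 fold changes of NR1H4 (circles), KLB (squares) and SLC51B (triangles) in 6 comparisons, with bars of ± 1 SE from edgeR. The row comparing the EE2 effects is a difference between log2 fold changes. Filled symbols passed an adjusted p under 0.05: SLC51B in males (1.65), all 3 genes in females (1.88, -1.08 for KLB and -0.74 for NR1H4), all 3 in the averaged effect (1.77, -0.62 and -0.53) and KLB in the difference between effects (-0.92).

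The partner subunit gene SLC51A was called in none of the 6 comparisons. Its mean was 4.42 ± 0.953 CPM in solvent males (SD, n = 5) and 6.57 ± 1.53 CPM in EE2 males (SD, n = 4), a fitted log2 change of 0.57 (SE 0.268, adjusted p = 0.287). In females it was 7.24 ± 2.64 CPM with solvent (SD, n = 5) and 7.61 ± 2.31 CPM with EE2 (SD, n = 6), a fitted log2 change of 0.08 (SE 0.241, adjusted p = 0.857). The ratio of SLC51B to SLC51A within a library does not depend on depth, though its absolute size depends on gene lengths that are not known here. It was 2.48 ± 0.539 in solvent males (SD, n = 5) and 5.18 ± 1.1 in EE2 males (SD, n = 4), a 2.09-fold rise of the geometric mean (two-sided exact permutation p = 0.0159, the groups not overlapping, and 0.0317 adjusted over 4 comparisons). In females the ratio was 1.75 ± 1.36 (SD, n = 5) and 6.45 ± 2.72 (SD, n = 6), a 4.23-fold rise (two-sided exact permutation p = 0.013, and 0.0317 adjusted over 4 comparisons). Solvent female replicate 3, with a ratio of 4.02, lay above EE2 female replicates 8 and 9, with 3.63 and 3.21. Between the sexes the ratio did not pass with solvent (exact permutation p = 0.151) or with EE2 (exact permutation p = 0.552).

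**Figure D3:**
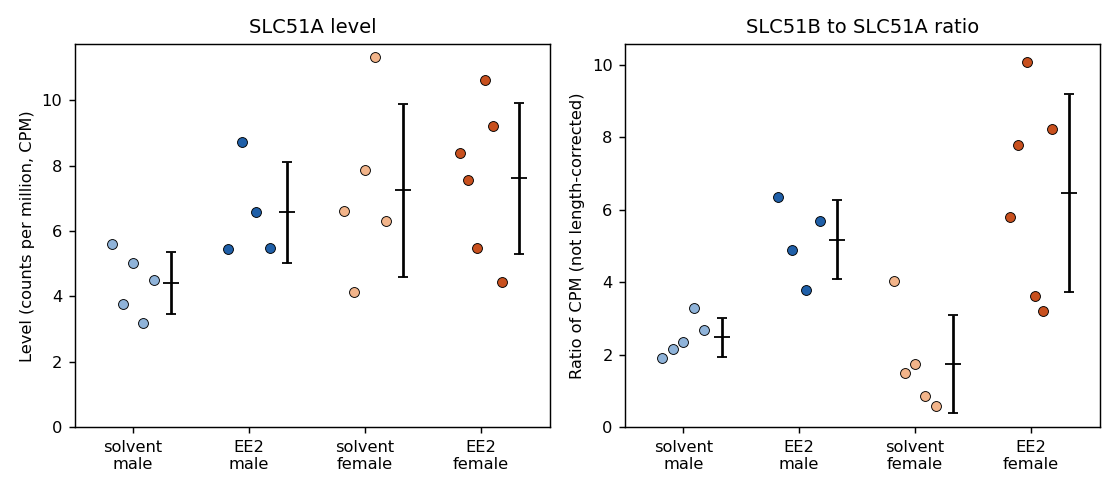
SLC51A level (left, CPM) and the ratio of SLC51B to SLC51A CPM within each library (right, not length-corrected), by sex and treatment. Points are embryos and bars are the mean ± SD. SLC51A overlaps between solvent and EE2 in each sex, while the ratio has a mean of 2.48 in solvent and 5.18 in EE2 males.

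The other genes of bile acid handling were read from 4 lists of 57 genes with the 3 members included, of which 37 were matched by name and 36 tested. In females 16 of the 36 fell and 3 rose, against 10.1% of all tested genes lower and 10.2% higher, with a median log2 fold change of -0.38 over the lists and 0.01 over all tested genes. In males 1 of 36 was called, SLC51B itself, where 2.24% of tested genes were higher and 1.03% lower, with a median of -0.18 against -0.01. That male count was 4 without EE2 male replicate 3 and 0 without EE2 male replicate 4. It was 3 without solvent male replicate 8, and 2 without solvent male replicate 7, solvent female replicate 5 or 9, or EE2 female replicate 7 or 9. The share of all tested genes called was not recorded for these fits, so the counts cannot be set against it. The absolute log2 fold change was larger in females for 24 of the 36 genes (66.7%), against 59.3% of all tested genes, and KLB alone of the 36 passed the test of the difference between the effects. The lists, like the members, were drawn up with earlier results of these data known.

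On the list of bile acid sensing genes, which holds NR1H4 itself, 5 of 10 tested genes fell in females and none rose. The background there was 10.1% of all tested genes lower and 10.2% higher. The 5 were NR1H4, HNF4A, PPARA, NR5A2 and PPARGC1A. HNF4A, a hepatocyte nuclear receptor, went from 40 ± 2.95 CPM (SD, n = 5) to 25.2 ± 2.32 CPM (SD, n = 6), a fitted log2 change of -0.67 (SE 0.0938, adjusted p = 5.58e-05). PPARA, the fatty acid receptor, fell by 0.92 in log2 terms (SE 0.13), and NR5A2, an activator of bile acid synthesis genes, fell by 0.37 (SE 0.0823). The coactivator PPARGC1A fell by 0.72 in females (SE 0.205, adjusted p = 0.0177), a call lost without solvent female replicate 10 (adjusted p = 0.0591). That call was also lost in 1 of 8 other alternatives, over which the value ran from -0.74 to -0.25. In males PPARGC1A went from 16.2 ± 4.99 CPM (SD, n = 5) to 9.04 ± 2.05 CPM (SD, n = 4) and was not called. Its averaged effect, -0.78, kept its call in all 20 fits that each left out a library, where 10.3% of tested genes were lower in the full fit. RXRA, the DNA-binding partner of the NR1H4 product, was at -0.03 (SE 0.0736, adjusted p = 0.822) in females and -0.04 (SE 0.0816, adjusted p = 0.869) in males.

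NR0B2, a target of the farnesoid X receptor in human and mouse, was called in the averaged effect only, where 10.3% of tested genes were lower, at -0.84 (SE 0.23, adjusted p = 0.0138). It went from 14.6 ± 7.41 to 7.13 ± 3.17 CPM in males (SD, n = 5 and 4) and from 12.6 ± 3.57 to 8.03 ± 1.87 CPM in females (SD, n = 5 and 6). Its log2 fold changes of -1.03 in males (adjusted p = 0.117) and -0.65 in females (adjusted p = 0.143) did not pass.

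Of the 8 tested genes of the FGF receptor axis, KLB and FGFR4 fell and FGF23 rose in females. Of all tested genes, 10.1% were lower and 10.2% higher there. FGFR4, the receptor that works with KLB, went from 203 ± 12.3 CPM (SD, n = 5) to 144 ± 12.9 CPM (SD, n = 6), a fitted log2 change of -0.50 (SE 0.0869, adjusted p = 0.000448). For FGFR4, 6 of 6 EE2 females lay below every solvent female, a pattern that 6.08% of tested genes showed. In males its log2 fold change was -0.12 (SE 0.0967, adjusted p = 0.608). FGF23, known in mammals as a phosphate-regulating hormone of bone, was at 1 to 8 counts in the solvent females and 47 to 163 counts in the EE2 females. Its mean went from 0.138 ± 0.114 CPM (SD, n = 5) to 3.03 ± 1.35 CPM (SD, n = 6), a fitted log2 change of 4.40 (SE 0.752, adjusted p = 0.000361). FGF19 was at 17.2 CPM in solvent male replicate 2 and at 0.137 to 2.92 CPM in the other solvent males, against 2.42 to 4.01 CPM in EE2 males. In females it was at 0.851 to 5.82 CPM with solvent and 2.99 to 9.76 CPM with EE2, and neither the male nor the female log2 fold change passed (adjusted p = 0.883 and 0.458).

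Among transport genes, 4 of 13 fell and 2 rose in EE2 females, where 10.1% of tested genes were lower and 10.2% higher. ABCB11, the canalicular bile salt export pump, went from 128 ± 43.2 CPM (SD, n = 5) to 51.9 ± 17.9 CPM (SD, n = 6), a fitted log2 change of -1.30 (SE 0.326, adjusted p = 0.00792). All 6 EE2 females lay below all 5 solvent females for ABCB11, as they did for 6.08% of tested genes. In males it was at 111 ± 26.1 CPM (SD, n = 5) and 96 ± 56.6 CPM (SD, n = 4), with EE2 male replicate 3 the highest at 175 CPM and replicate 5 the lowest at 47.9 CPM. The half-transporter genes ABCG5 and ABCG8, which together export sterols, fell by 1.37 (SE 0.19) and by 0.91 (SE 0.256), in log2 terms. ABCG8 lost its call without solvent female replicate 10 (adjusted p = 0.0627).

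ABCG2, an efflux pump of broad substrate range, fell by 0.40 in females (SE 0.131, adjusted p = 0.0374). It lost that call without solvent female replicate 3, 6, 9 or 10 or EE2 female replicate 1, 7, 9 or 10, and in a fit of the female groups alone (adjusted p = 0.0611). In males ABCG2 was at -0.49 (SE 0.147, adjusted p = 0.0795), which did not pass. Its averaged effect was -0.44 (SE 0.0986, adjusted p = 0.00327), where 10.3% of tested genes were lower. That averaged call held in all 20 fits that each left out a library. SLC51B and ABCC4 were the genes that rose in females. ABCC4, a basolateral efflux pump, went from 2.06 ± 0.549 CPM (SD, n = 5) to 4.44 ± 1.36 CPM (SD, n = 6), a fitted log2 change of 1.10 (SE 0.238, adjusted p = 0.0026). In males it was at 0.40 (SE 0.262, adjusted p = 0.489). SLC10A2, an ileal bile acid carrier gene in mammals, was at 0 in all 20 libraries and was not tested.

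All 5 tested synthesis genes fell in EE2 females, where 10.1% of tested genes were lower. None of the 5 was called in males, where 3.27% of tested genes were called. AKR1D1, which reduces the steroid ring in bile acid synthesis, went from 400 ± 29.7 CPM (SD, n = 5) to 184 ± 43 CPM (SD, n = 6), a fitted log2 change of -1.12 (SE 0.216, adjusted p = 0.00109). SCP2, ACOX2, AMACR and HSD17B4, which shorten the side chain in peroxisomes, had values between -0.75 and -0.55. AMACR and HSD17B4 lie on the Z chromosome in the gene table used, of which male birds carry a pair, and both were also lower in females with solvent, at -0.91 (SE 0.133) and -0.59 (SE 0.109). The other 10 listed synthesis genes, CYP7A1 among them, and SLC10A1 were not matched by name and were not analysed here.

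**Figure D4:**
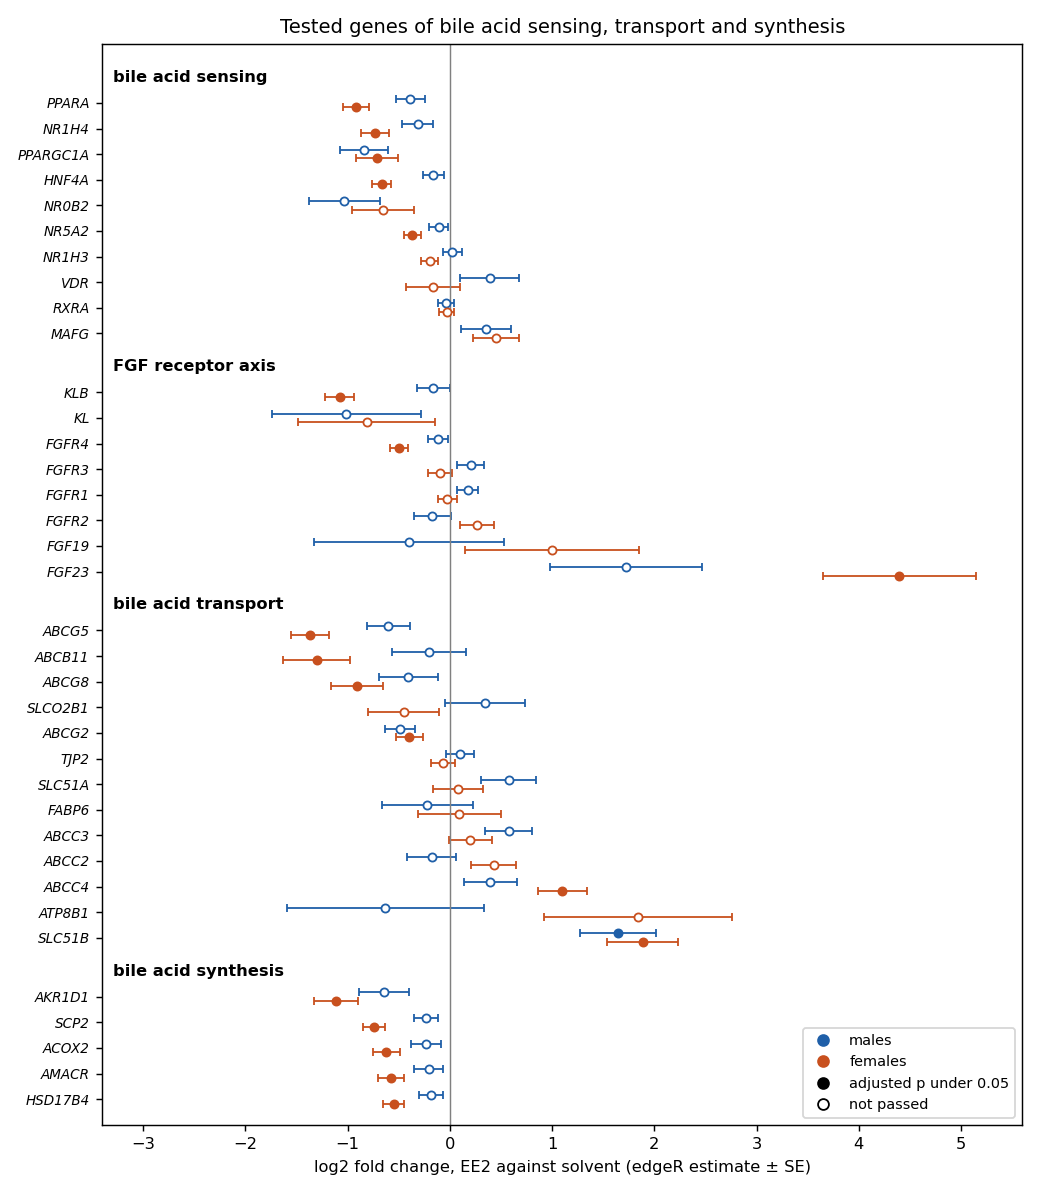
Log2 fold change of EE2 against solvent (± SE, edgeR) for the 36 tested genes of 4 lists, in males (blue) and females (orange), ordered within a list by the female value. Filled symbols passed an adjusted p under 0.05, which 19 genes did in females and 1, SLC51B, did in males. Of all tested genes, 20.3% passed in females and 3.27% in males.

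With EE2, 5 of the 36 listed genes differed between the sexes, 1 higher and 4 lower in females, where 2.21% of tested genes were higher and 4.25% lower. ABCC4 was higher in females (0.98, SE 0.255, adjusted p = 0.0255). HNF4A (-0.36), SCP2 (-0.43), AMACR (-1.27) and HSD17B4 (-0.95) were lower. Without EE2 male replicate 3, ABCC4 (adjusted p = 0.095), SCP2 (adjusted p = 0.0877) and HNF4A (adjusted p = 0.181) lost the call. Other single libraries mattered too: over the 20 fits, HNF4A lost its call in 5, SCP2 in 4 and ABCC4 in 4. AMACR and HSD17B4 kept theirs in all 20 fits that each left out a library. The count of called genes among the 36 was 2 without EE2 male replicate 3 or EE2 female replicate 9. It was 3 without EE2 female replicate 8 and 8 without EE2 male replicate 5. For these fits too, the share of all tested genes called was not recorded. With solvent, AMACR and HSD17B4 were the called genes among the 36, where 1.41% of tested genes were lower in females.

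Marker levels of some cell types moved with some of these results. In EE2 females, none of 8 endothelium, 7 macrophage and 3 erythroid markers tested was called. Of 9 stellate markers 1 rose and 1 fell, and of 3 tested kidney markers 1 rose. None of the markers on these lists was called in males. Of all tested genes, 20.3% were called in females and 3.27% in males. The 8 matched hepatocyte markers summed to between 185610 and 287223 CPM in solvent females and between 82595 and 146734 CPM in EE2 females. Of the 8, 6 were lower and 1 higher in EE2 females, against 10.1% of tested genes lower and 10.2% higher. In males 2 of the 8 fell and 1 rose: APOA1 fell by 0.94 (adjusted p = 0.0348), FGB fell by 0.88 (adjusted p = 0.00863) and APOB rose by 1.86, in log2 terms. Of tested genes, 1.03% were lower and 2.24% higher in males. Male sums, of which ALB and TF were the bulk, were 136106 to 212126 CPM with solvent and 154610 to 243969 CPM with EE2. For ALB and AMBP the EE2 effect was lower in females than in males, at -1.74 (adjusted p = 0.0232) and -0.84 (adjusted p = 0.0334). The other 6 of the 8 hepatocyte markers were not called for this difference. Of tested genes, 1.06% were called for it and 0.8% were called lower. The difference for KLB had the same direction, with a call at the threshold. In bulk tissue fewer cells of a type and less RNA per cell cannot be told apart, and the part of this in the falls of NR1H4 and KLB was not tested. The 5 matched muscle markers summed to 14.3 to 261 CPM in EE2 males (median 44.8) and 4.07 to 23.1 CPM in EE2 females (median 6.24). Between the sexes with EE2, all 5 were called lower in females, where 4.25% of tested genes were lower. In that comparison 4 of the 8 hepatocyte markers were also lower and none was higher. Against solvent, 1 of the 5 muscle markers rose in males (2.24% of tested genes) and 1 fell in females (10.1%). TNNC1 alone of the 5 had a lower mean in EE2 than in solvent females, 2.61 against 23 CPM. The part of the muscle markers in the differences between the sexes was not tested. Of the 5 matched cholangiocyte markers, 2 rose and 1 fell in EE2 females, against 10.2% of tested genes higher and 10.1% lower. None of the 5 was called in males, where 3.27% of tested genes were called. SPP1 went from 12.2 ± 1.6 to 64.3 ± 26.3 CPM in females (SD, n = 5 and 6), SOX9 from 3.96 ± 1.57 to 14.6 ± 6.9 CPM, and EPCAM from 128 ± 12 to 84.6 ± 17.7 CPM. The EE2 effect on SPP1 was higher in females than in males by 2.37 (adjusted p = 0.0232). The other 4 of the 5 cholangiocyte markers were not called for this difference, EPCAM being at -0.65 (adjusted p = 0.0921). Of tested genes, 1.06% were called for it. EPCAM made up most of the summed level in solvent females, and the sum was 144 to 176 CPM there and 121 to 240.5 CPM in EE2 females. The part of these markers in the members' changes was not tested.

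SLC51B is known as an intestinal gene as well. Of 7 tested enterocyte markers, 3 rose and 2 fell in EE2 females, in the same libraries in which SLC51B rose. Of all tested genes, 10.2% were higher and 10.1% lower in females. LGALS2 went from 6.87 ± 2.2 to 19.3 ± 4.66 CPM in females (SD, n = 5 and 6), VIL1 from 0.473 ± 0.169 to 2.03 ± 1.12 CPM and CDH17 from 3.13 ± 1.9 to 7.02 ± 2.64 CPM, while CDX2 and FABP2 fell. In EE2 males LGALS2 and SI rose and APOA4 and FABP2 fell, where 2.24% of tested genes were higher and 1.03% lower. The summed level of the 8 matched markers was 216 to 413 CPM in solvent females, 205 to 672 CPM in EE2 females, 244 to 978 CPM in solvent males and 105 to 234 CPM in EE2 males. APOA4 was the bulk of these sums. Its mean was 262 CPM in solvent and 314 CPM in EE2 females, and 572 CPM in solvent and 140 CPM in EE2 males. CDX1 was at 0 in 19 of 20 libraries and each of the other 7 markers was detected in at least 19. Their part in the rise of SLC51B was not tested.

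Over the 20 libraries, the named genes whose profile lay closest to each member were found by the root-mean-square difference in log2 CPM after centring each gene on its own mean, among 11534 other named genes. For NR1H4 these included GATD3A (0.18), VDAC1 (0.19), CCDC82 (0.19) and HNF4A (0.20). For KLB they were CEBPA (0.23), ESRRG (0.24), VAV3 (0.25), ZNF827 (0.25) and ACADSB (0.25). SLC51B varied more, and the distances were larger, for MICAL2 (0.59), SUCO (0.60), PLA2R1 (0.62), CLMN (0.62) and RARA (0.64). The lists describe these 20 libraries, in which the genes share treatment, sex and depth. NR1H4 and KLB were at 0.30 from each other, and SLC51B was at 1.42 from NR1H4 and 1.48 from KLB.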

How the data were processed

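RNA sequencing libraries of 20 livers were used. Estimated counts for single coding sequences came in 2 deposited tables. The submitters' processing notes name kallisto, so the authors' values are estimated counts. Its version, transcript set and genome build are not given in the sources used here. Both tables carried equal values over 40934 coding sequences, under other row identifiers. The dose and sex lines of the file headers matched the labels in every column.

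Estimated counts were summed per NCBI gene identifier and rounded, giving 16066 genes, all matched to the gene table of Coturnix japonica 2.1, which supplied names. No coordinates are given because the build behind the counts is not stated. filterByExpr (minimum count 10) kept 13501 genes and 99.98% of the counts. No libraries of a group agreed within sampling noise (lowest chi-square per gene 30.3).

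One fit of all 20 libraries with 4 group means used edgeR 4.0.16 in R 4.3.3 (TMM, robust quasi-likelihood, two-sided, Benjamini-Hochberg), with a biological coefficient of variation of 0.245. The code of the fit was also run on simulated counts, with the same spread for every gene and changes set in EE2 females only. That run checked the code and not the calls made here. SEs come from the fold change and its F statistic. Alternatives were DESeq2 1.42.0, limma voom 3.58.1, other scalings and filters, fewer groups, a replicate block, single coding sequences and each library left out. Exact permutation tests used scipy 1.17.1.

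The members and lists were chosen with earlier results of these data known. Named genes were the members, list genes called in any of 6 comparisons, 8 partner genes, of which SLC10A1 and CYP7A1 were not matched, and the 5 nearest profiles per member, of which 1 is not reported here. Enterocyte and other markers are named beside the result they stand with. The SLC51B to SLC51A ratio and the tests of coding sequence shares were added after the data were seen. Depth was 15298506 to 32119466 estimated counts, and reads are not independent molecules.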

Additional observations from a re-analysis of the deposited data

Results flagged for a closer look

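The EE2 effect on KLB differed between females and males by -0.92 on the log2 scale (edgeR adjusted p = 0.0446), with 6 of 6 EE2 females below every solvent female and overlapping male groups. Of tested genes, 1.06% were called for the difference and 6.08% had every EE2 female below every solvent female.

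Single embryos stood far from the rest of their group, by Dixon's criterion, in 8 of 92 gene and group sets over 23 genes. Chance flags about 1 in 20 such sets. In EE2 male replicate 3, NR1H4 was at 111 CPM against 68.8 to 74.1 in the other EE2 males, and PPARA at 45.4 CPM against 33.2 to 35.1. The other sets were AMACR in solvent female replicate 9 (48.1 CPM, others 76.5 to 82.6), ABCG8 in EE2 male replicate 5 (1.29 CPM, others 2.05 to 2.19) and PPARGC1A in EE2 male replicate 4 (5.97 CPM, others 9.89 to 10.2). They also held ABCG2 in solvent female replicate 5 (94.8 CPM, others 148 to 157), FGF23 in solvent female replicate 10 (0.34 CPM, others 0.0657 to 0.106) and FGF19 in solvent male replicate 2 (17.2 CPM, others 0.137 to 2.92).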

How the results depend on the processing

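The falls of NR1H4 and KLB and the rise of SLC51B in females, and the 3 averaged effects, kept direction and call under every alternative run. The sex difference of KLB with solvent (0.58) passed with upper-quartile scaling (0.59), DESeq2's Wald test (0.58) and only the solvent groups (0.58). It did not pass in the other 6 of 9 alternatives. That of NR1H4 with EE2 (-0.48) passed with the stricter filter (-0.48) and the Wald test (-0.48), and not in the other 8 of 10 alternatives. The KLB difference between the sexes' effects lost its call over all coding sequences (-0.91), where 0.0301% were called. Counts of listed genes with the Wald test were 4 in males, 2 for the difference between effects and 9 between the sexes with EE2. In these comparisons the Wald test called 768, 454 and 1311 of all 13501 tested genes. Libraries of the same replicate number were not treated as pairs, as the labels give no batch or pairing. Of 10 such pairs, 2 had a correlation of deviations over 0.1. A weak correlation does not settle whether libraries shared a batch, and this was not tested. With the replicate block, SLC51B in males was 1.48 and the KLB difference -1.25, neither passing. Counts of listed genes with the block were 0 in males, 10 in females, 0 for the difference between effects, 0 between the sexes with solvent and 2 with EE2. In the same order the block called 52, 877, 0, 47 and 99 of all 13501 tested genes. Leaving out each library gave NR1H4 in males -0.50 to -0.19, SLC51B in males 1.51 to 1.77, the KLB difference -1.03 to -0.77, KLB between the sexes with solvent 0.50 to 0.62 and NR1H4 with EE2 -0.55 to -0.29. Counts ranged from 0 to 4 in males, 0 to 2 for the difference between effects and 2 to 8 between the sexes with EE2. The shares of all tested genes called in those fits were not recorded. Of 1103 alternatives for 40 calls of other listed genes, 1051 kept the call, 52 lost it and 0 reversed. Over all genes, the 441 called in males became 768 with the Wald test, 195 with only the male groups and 52 with the block. The block gave 877 for 2737 in females, 99 for 873 between the sexes with EE2, 47 for 232 with solvent and 0 for 143 between effects. The Wald test gave 1311 for 873 and 454 for 143. The causes were not tested. Depth limits FGF23, which had 1 to 8 counts in solvent females.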
